A study of Mus musculus with 3 samples.

Results

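Cxcl12 Btnl9 cells are capillary endothelial cells (ECs) of the mouse heart that carried RNA of the chemokine Cxcl12, of the butyrophilin-like gene Btnl9 or of both. They were picked by a rule on unique molecular identifiers (UMIs, the molecules counted per cell). A cell with at least 200 detected genes was called an EC when Pecam1, Cdh5, Kdr and Egfl7 summed to at least 3 UMIs and to over 2 times each of a fibroblast sum (Col1a1, Col1a2, Pdgfra), a blood cell sum (Ptprc, Tyrobp, C1qa) and a mural cell sum (Myh11, Rgs5, Vtn). Of these ECs, a cell was kept when Cxcl12 and Btnl9 summed to at least 3 UMIs while the markers of other ECs stayed low. Those limits were at most 1 UMI each for Car4 with Aplnr (other capillary ECs), for Gja4, Gja5, Sema3g and Gkn3 (arterial ECs), for Vwf (venous ECs) and for Apln, Mest and Pcdh17 (activated capillary ECs), and 0 UMIs for Npr3 (endocardial ECs). The rule kept 611 of 2800 ECs, among 6915 cells in all.

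The cells came from 3 single-cell RNA-seq (scRNA-seq) libraries of non-cardiomyocytes from the ventricles of wild-type mice, given by the study as male C57BL/6JJcl mice operated at 8 weeks of age. Ventricles were digested with collagenase, and red cells and debris were removed before cells were loaded. The healthy library was the control without transverse aortic constriction (TAC, 0 weeks), an operation that narrows the aortic arch and overloads the left ventricle with pressure. The adaptive hypertrophy and heart failure libraries came from hearts 2 and 12 weeks after TAC. There was 1 library per phase, so differences between phases have no replicate check, no test was run on them, and phase, animal, day of preparation and library cannot be told apart. How many hearts each library pooled is not given in the sources used here.

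Heart muscle is supplied by a dense capillary bed, in which ECs change gradually from the arteriolar inflow to the venular outflow. Cxcl12 is the ligand of the receptor Cxcr4 and is bound by the scavenging receptor Ackr3, and in coronary vessels it is known as an arterial-side EC chemokine. Capillary ECs of the heart also move fatty acids from the blood to the muscle, with Gpihbp1 holding lipoprotein lipase on the vessel wall, Cd36 taking up fatty acids and Fabp4 and Fabp5 binding them. Rbp7 is a retinol-binding protein of the same protein family as Fabp4, and Aqp7 is a channel for water and glycerol.

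The promoters of the 4 marker genes are printed because these genes marked the cells together. Sequences were taken from RefSeq (GRCm38.p6) and cover the bases just before each gene's start, without bases inside an annotated gene. Capitals mark matches on either strand to AGGAAG, the core bound by ETS factors, to TGGGAA, the core bound by the Notch effector RBPJ, and to GGGTGGG, bound by KLF factors. Of all 27025 promoters, 29.2% held the ETS letters in the 250 bases before the start, 21.5% the RBPJ letters and 15.5% the KLF letters. The 4 stretches were chr6:117168285-117168534 (plus strand) for Cxcl12, chr11:49187160-49187339 (minus strand) for Btnl9, chr4:149454979-149455218 (minus strand) for Rbp7 and chr4:41048140-41048386 (minus strand) for Aqp7.
Cxcl12: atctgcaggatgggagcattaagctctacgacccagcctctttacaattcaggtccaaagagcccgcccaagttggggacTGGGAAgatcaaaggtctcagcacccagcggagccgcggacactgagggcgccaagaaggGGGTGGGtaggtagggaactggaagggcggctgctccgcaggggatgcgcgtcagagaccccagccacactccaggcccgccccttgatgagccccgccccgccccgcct
Btnl9: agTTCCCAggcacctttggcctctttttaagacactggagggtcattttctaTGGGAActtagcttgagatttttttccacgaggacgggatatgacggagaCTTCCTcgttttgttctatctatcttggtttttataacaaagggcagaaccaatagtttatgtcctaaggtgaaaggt
Rbp7: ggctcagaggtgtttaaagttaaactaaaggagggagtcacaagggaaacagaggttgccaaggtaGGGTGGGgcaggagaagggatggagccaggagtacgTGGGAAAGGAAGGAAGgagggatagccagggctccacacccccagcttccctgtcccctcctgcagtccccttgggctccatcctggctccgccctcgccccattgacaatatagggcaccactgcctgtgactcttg
Aqp7: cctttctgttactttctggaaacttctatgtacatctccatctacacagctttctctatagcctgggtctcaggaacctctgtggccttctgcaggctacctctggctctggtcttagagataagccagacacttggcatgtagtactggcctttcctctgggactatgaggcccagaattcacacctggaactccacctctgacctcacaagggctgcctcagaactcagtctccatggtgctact
The Cxcl12 stretch held 1 RBPJ and 1 KLF match, the Btnl9 stretch 1 ETS and 2 RBPJ matches, and the Rbp7 stretch 1 KLF match and 1 RBPJ match that runs straight into 2 overlapping ETS matches. The Aqp7 stretch held none of the 3. Base composition was taken over the full 250 bases before each RefSeq start. For Btnl9, Rbp7 and Aqp7 these include 70, 10 and 3 bases inside the annotated gene that are not printed. Cxcl12 stood apart, with 64.4% G and C and 14 CpG sites. Btnl9 had 45.6% and 5, Rbp7 58.4% and 3 and Aqp7 50.8% and 0, and the median over all promoters was 52% and 6. These letter matches are descriptions and were not set against any measured binding.

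Levels are given as CPM, the UMIs of a gene scaled to the same total of UMIs in every group, with exact Poisson 95% intervals. Group sums pool all cells of a library. Ratios carry exact conditional binomial 95% intervals and shares of cells exact Clopper-Pearson intervals. All of these intervals cover counting error only. A gene was compared when both groups together held at least 20 of its UMIs. It was counted as higher or lower past 2-fold.

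Rbp7 and Aqp7, 2 marker genes of these cells that the rule did not use, were looked at next. The cells were chosen with earlier results of these data known, so these genes are no independent check of the label. Rbp7 UMIs were found in 58.5%, 55.2% and 36.0% of the Cxcl12 Btnl9 cells in the healthy, 2-week and 12-week libraries. In the other ECs the shares were 31.8%, 35.3% and 32.5%, and in blood cells, which should lack the gene, they were 1.87%, 2.5% and 1.39%. Aqp7 UMIs were found in 54.3%, 50.6% and 49.3% of the Cxcl12 Btnl9 cells, in 32.6%, 35.9% and 33.7% of the other ECs and in at most 1.39% of blood cells. The Cxcl12 Btnl9 cells were the shallower cells in the healthy and 2-week libraries, with median UMIs per cell of 1909.5, 1543.5 and 1404, against 2544, 1672 and 1420 in the other ECs and 2675, 1824.5 and 1607 in blood cells. After thinning each cell to 1000 UMIs, Rbp7 was seen in 44.1%, 49.8% and 25.0% of the Cxcl12 Btnl9 cells and in 17.7%, 24.6% and 23% of the other ECs. At 12 weeks the Rbp7 shares of both groups were close, while the Aqp7 shares after thinning were 35.1%, 35.6% and 44.6% in the Cxcl12 Btnl9 cells and 14.3%, 22.4% and 26.2% in the other ECs.

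Cxcl12 carried the choice of most of the cells. Both genes were present in 338 of the 611 cells, Cxcl12 alone in 270 and Btnl9 alone in 3, and Cxcl12 gave 87.5% of the UMIs of the sum. Btnl9 was also the only gene detected of 8 listed members of the butyrophilin family, as Btnl1, Btnl2, Btnl4, Btnl6, Btn1a1, Btn2a2 and Ermap were at 0 UMIs in the cells of each library. The median Cxcl12 and Btnl9 sum was 7 in the healthy cells and 5 at 2 and at 12 weeks, with a highest value of 43. Exactly 138 cells stood at the limit of 3 UMIs. Their Rbp7 level was 618 CPM (519 to 731) and their Aqp7 level 296 CPM (229 to 376). In the 162 ECs just outside the rule with a sum of 2, Rbp7 stood at 518 CPM (434 to 613) and Aqp7 at 247 CPM (191 to 316). In the 374 cells with a sum of 5 or more, Rbp7 reached 1157 CPM (1080 to 1238) and Aqp7 540 CPM (488 to 596). The intervals on both sides of the limit overlapped, so the limit cuts a range of levels.

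The rule also left out ECs that did carry Cxcl12 or Btnl9. Of the ECs, 486, 678 and 111 in the healthy, 2-week and 12-week libraries held at least 3 UMIs of the 2 genes, which was 47.9%, 44.0% and 45.5% of all ECs. Among these, the Car4 and Aplnr limit removed 221, 229 and 28 cells and the Apln, Mest and Pcdh17 limit 172, 114 and 10 cells. The arterial limit removed 20, 62 and 2 cells. As deposited, the share of ECs with at least 3 UMIs of the 2 genes was thus nearly level over the phases. This share depends on depth. With each cell thinned to 1000 UMIs, sums of 3 or 4 were held by 84 of 605, 143 of 974 and 29 of 140 ECs. Sums of 5 or more were held by 77, 127 and 28 of them, so the share was largest at 12 weeks at matched depth. The number removed for Apln, Mest and Pcdh17 was largest in the healthy library.

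The libraries held 3892, 2231 and 792 cells after the gene limit, with median UMIs per cell of 2589, 1495 and 1434. The median mitochondrial share in the Cxcl12 Btnl9 cells was 2.10%, 1.90% and 1.65%. Between 1 and 5 cell barcodes were shared by any pair of libraries, and none belonged to a Cxcl12 Btnl9 cell in both. Scrublet called 33, 2 and 1 doublets in the 3 libraries, under 0.5% of the cells in 2 of them, so doublets were not removed. A few Cxcl12 Btnl9 cells carried RNA of other cells. In 1 cell at 12 weeks 1977 of 3986 UMIs were haemoglobin, in 1 cell at 2 weeks 575 of 3264 were, and 1 healthy cell held 200 UMIs of the lymphatic genes Mmrn1, Ccl21a and Igfbp5 among 7399. Summed fibroblast markers stood at 682, 82.1 and 956 CPM in the Cxcl12 Btnl9 cells and at 971, 92.2 and 1028 CPM in the other ECs. Summed blood cell markers stood at 346, 65.3 and 393 CPM, and summed cardiomyocyte markers at 596, 447 and 205 CPM. The 2-week cells were thus the lowest in fibroblast and blood cell RNA in both EC groups, and cardiomyocyte RNA was lowest at 12 weeks.

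The Cxcl12 Btnl9 cells took a larger share of the ECs after TAC than in the healthy library. They numbered 188 of 1015 ECs in the healthy library, or 18.5% (16.2 to 21.1). At 2 weeks they numbered 348 of 1541, or 22.6% (20.5 to 24.8), and at 12 weeks 75 of 244, or 30.7% (25.0 to 36.9). The 12-week share was 1.66 times the healthy share (1.32 to 2.09). Because the rule counts UMIs, the share depends on depth. With every cell thinned to 1000 UMIs before the rule was applied, the cells were 131 of 605 ECs in the healthy library, or 21.7% (18.4 to 25.2), 221 of 974 at 2 weeks, or 22.7% (20.1 to 25.5), and 42 of 140 at 12 weeks, or 30% (22.6 to 38.3). At 2 weeks the thinned share was 1.05 times the healthy one (0.866 to 1.27), and at 12 weeks it was 1.39 times (1.03 to 1.86). The excess at 2 weeks was therefore within counting error at matched depth. Thinning left out 0, 606 and 268 cells below 1000 UMIs.

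**Figure D1:**
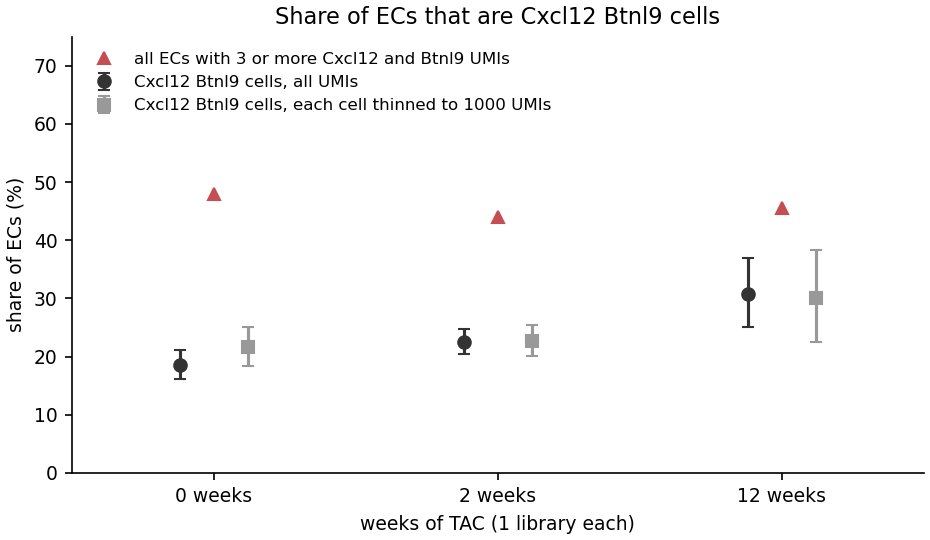
Share of ECs that were Cxcl12 Btnl9 cells, in percent, in the healthy, 2-week and 12-week libraries, from all UMIs and after thinning each cell to 1000 UMIs. Points are the shares and bars the exact 95% Clopper-Pearson intervals; the shares run from 18.5% to 30.7% with all UMIs and from 21.7% to 30% after thinning.

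Few genes outside the rule differed past 2-fold between the Cxcl12 Btnl9 cells and the other ECs in every library. Both groups were split by the rule from the same ECs, so these values are descriptions. The other ECs included cells with at least 3 Cxcl12 and Btnl9 UMIs that the other limits had removed. These were 298 of 827, 330 of 1193 and 36 of 169 in the 3 libraries, and their part in the ratios was not tested. Of 3349 genes outside the rule that were compared in all 3 libraries, 701 were higher in the Cxcl12 Btnl9 cells in every library and 568 lower, and 2 (0.0597%) were past 2-fold higher in every library. These were Rbp7 and Alox12, the latter an arachidonate lipoxygenase. Rbp7 (ENSMUSG00000028996, GRCm38 chromosome 4, 149449687 to 149454978) stood at 1025 CPM (929 to 1128) in the healthy cells, 949 CPM (873 to 1031) at 2 weeks and 768 CPM (618 to 945) at 12 weeks. The other ECs stood at 259, 455 and 374 CPM. The ratios were 3.96 (3.5 to 4.47), 2.09 (1.89 to 2.31) and 2.06 (1.54 to 2.74). Alox12 (chromosome 11, 70241457 to 70255353) stood at 56.4, 51.9 and 111 CPM against 13.6, 17.6 and 26.5 CPM, from 23, 31 and 13 UMIs, with ratios of 4.16 (2.36 to 7.19), 2.95 (1.81 to 4.77) and 4.20 (1.61 to 11.7). With the mean over cells in place of summed UMIs, Rbp7 stood at 1.47 times the other ECs at 12 weeks, and Alox12 had too few UMIs to be compared in every library after thinning.

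Aqp7 (ENSMUSG00000028427, chromosome 4, 41033074 to 41048139) was also higher in every library. Its levels were 439 CPM (377 to 508), 474 CPM (420 to 532) and 598 CPM (466 to 755), against 164, 275 and 317 CPM in the other ECs. The ratios were 2.68 (2.24 to 3.19), 1.73 (1.5 to 1.98) and 1.88 (1.36 to 2.59). Cd300lg, a capillary EC surface receptor also called nepmucin, stood at 537, 884 and 948 CPM and at 2.19, 1.51 and 1.80 times the other ECs. Mgll, which splits monoglycerides into glycerol and fatty acid, stood at 1270, 970 and 1639 CPM and at 1.83, 1.5 and 1.97 times. Unc5b, a netrin receptor of arterial and sprouting ECs, stood at 103, 161 and 205 CPM and at 1.67, 1.63 and 2.30 times. The rule's own genes, Cxcl12 (chromosome 6, 117168535 to 117181367) and Btnl9 (chromosome 11, 49165585 to 49187159), stood at 3673, 3408 and 4355 CPM and at 471, 548 and 478 CPM.

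**Figure D2:**
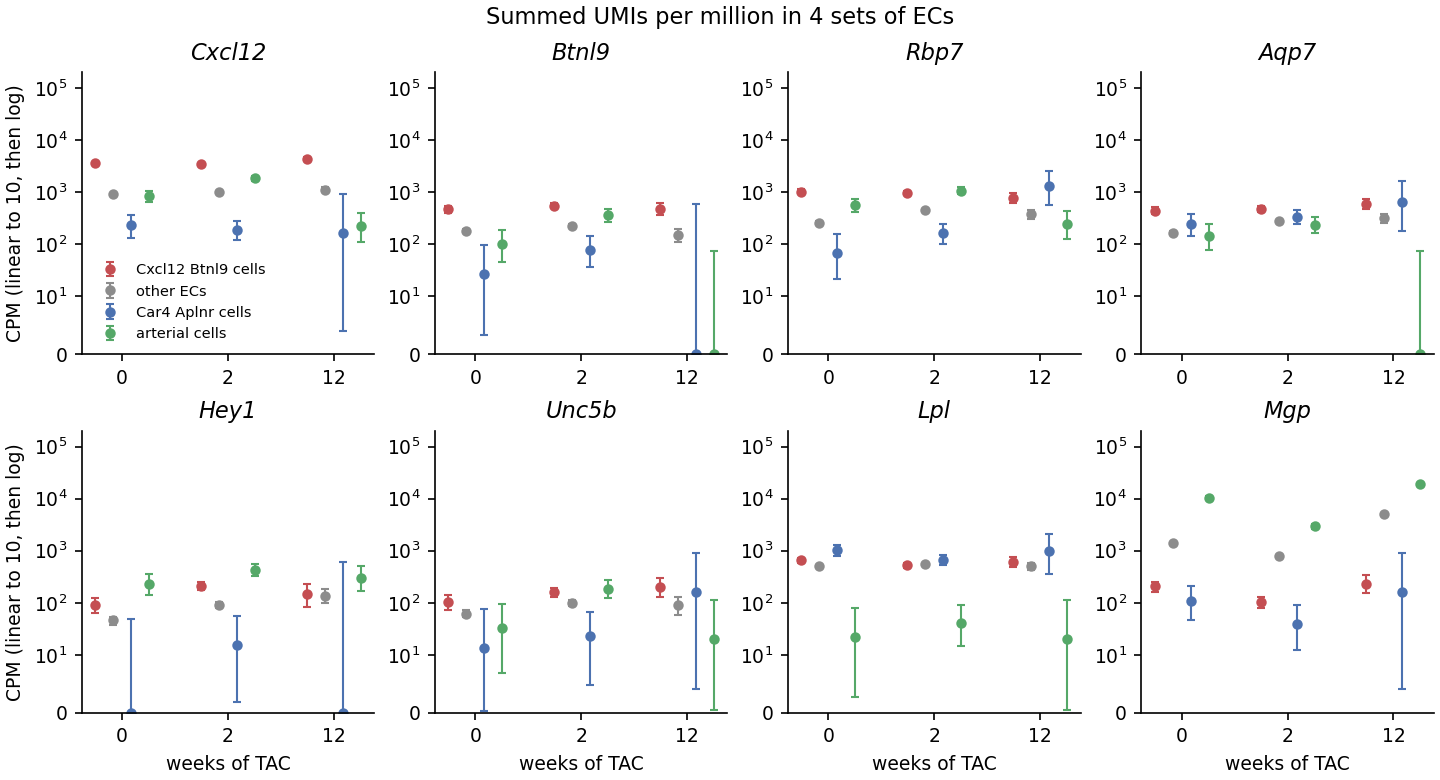
Levels of the marker and capillary or arterial genes in Cxcl12 Btnl9 cells, other ECs, and the Car4 Aplnr and arterial cells described further on, in each library by weeks of TAC, in CPM on an axis that is linear to 10 and then log, with exact Poisson 95% intervals. Rbp7 and Aqp7 sit above the other ECs in each library, the Car4 Aplnr cells at 12 weeks are 5 cells with wide bars, and Cxcl12 and Btnl9 were used by the rule.

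Genes lower in the Cxcl12 Btnl9 cells past 2-fold in every library numbered 19 (0.567% of those compared). Arterial and Npr3 cells were kept out of one side by the rule. Mgp, an inhibitor of calcification, stood at 206, 102 and 231 CPM against 1384, 782 and 5145 CPM in the other ECs, with ratios of 0.149, 0.131 and 0.0448. Eln, the elastic fibre protein, stood at 46.6, 31.8 and 25.6 CPM with ratios of 0.268 (0.160 to 0.423), 0.170 (0.102 to 0.269) and 0.0799 (0.0162 to 0.240). Cytl1, a small secreted protein, was seen in 1 UMI over all 611 cells while the other ECs held 319, 85.9 and 909 CPM. The others included Ccl21a, Bmx, Vcam1, Igf2, Bgn, Igfbp4, Htra1, Pthlh, Ctsh, Atp2a3, Emp3, Cpe, Sulf1 and Adm. The median log2 ratio over all genes compared was 0.04 in each library. Arterial cells, defined here as ECs with at least 3 UMIs of the arterial rule genes and the other limits kept, were part of the other ECs at 3.45%, 3.96% and 7.79% of all ECs, and the part of this mix in the lower ratios was not tested.

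Rbp7 and Aqp7 went up with the Cxcl12 and Btnl9 sum across ECs in the healthy and 2-week libraries, and less clearly at 12 weeks. ECs thinned to 1000 UMIs were placed in bins by the thinned sum alone, without the other limits. In the healthy library Rbp7 stood at 119 CPM in the 226 ECs with a sum of 0, at 229 CPM with a sum of 1, at 678 CPM with 2, at 750 CPM with 3 or 4 and at 1377 CPM (1127 to 1665) with 5 or more. At 2 weeks the 5 levels were 322, 583, 533, 909 and 1433 CPM (1232 to 1657 in the last). At 12 weeks they were 326, 208, 385, 310 and 714 CPM (436 to 1103 in the last), with 13 to 46 ECs a bin, and the intervals of the bins overlapped. Aqp7 stood at 102 and 688 CPM in the lowest and highest bins of the healthy library and at 214 and 606 CPM at 2 weeks. At 12 weeks its 5 levels were 217, 542, 692, 655 and 714 CPM, with overlapping intervals from a sum of 1 up. Hey1, a transcriptional target of Notch, stood at 48.7 and 130 CPM in the lowest and highest bins of the healthy library. At 2 weeks these were 72.3 and 315 CPM and at 12 weeks 239 and 179 CPM. Gpihbp1 had its highest level in the middle of the healthy range, with 1004 CPM at a sum of 0, 2024 CPM at 3 or 4 and 1558 CPM at 5 or more. The bins come from the same cells and share library and depth, so the pattern is given as a description.

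**Figure D3:**
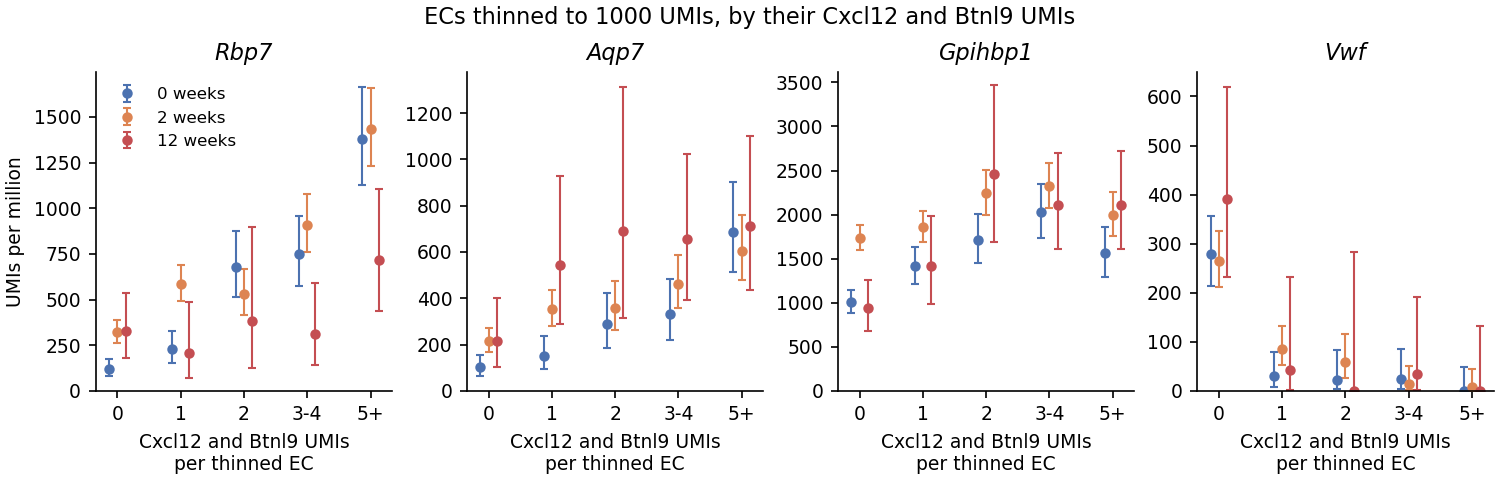
Levels of Rbp7, Aqp7 and other genes (CPM, exact Poisson 95% intervals) in ECs binned by their Cxcl12 and Btnl9 UMIs, each cell thinned to 1000 UMIs, in the 3 libraries. Healthy Rbp7 runs from 119 CPM at a sum of 0 to 1377 CPM at 5 or more, and at 12 weeks the intervals of the bins overlap.

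The Cxcl12 Btnl9 cells were then set beside the neighbouring groups of ECs. The Car4 Aplnr cells had at least 3 UMIs of Car4 and Aplnr and at most 1 of Cxcl12 and Btnl9, and numbered 104 (32, 67 and 5 by library). The arterial cells numbered 115 (35, 61 and 19). Values were summed over the libraries. Of 10 capillary genes compared, 5 had a level between both neighbours and 5 above both (Cd300lg, Id1, Id3, Sgk1 and Tspan13). Gpihbp1 stood at 0.978 (0.877 to 1.09) times the Car4 Aplnr cells and 8.87 (6.84 to 11.7) times the arterial cells. Rgcc, a cell cycle regulator and capillary marker, stood at 0.976 (0.864 to 1.11) and 8.0 (6.05 to 10.8) times. Lpl, lipoprotein lipase itself, stood at 0.726 (0.612 to 0.866) and 18.4 (9.63 to 40.4) times, and Cd36 at 1.19 (1.08 to 1.31) and 3.11 (2.73 to 3.55) times.

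Of 27 arterial and Notch genes with at least 20 UMIs over the 3 groups, 22 had a level between both neighbours, 2 lay above both (Cxcr4 and Unc5b) and 3 below both (Cldn5, Dll1 and Eln). These counts, like those of the capillary genes, compare summed levels without regard to their intervals. The share of all genes with a level between both neighbours was not computed. Arterial cells were chosen for high arterial rule genes and the Cxcl12 Btnl9 cells for low ones. Lower levels of arterial genes than in the arterial cells thus partly follow from the choice, and the counts are descriptions. Hey1 was at 160 CPM in the Cxcl12 Btnl9 cells, 9.51 CPM in the Car4 Aplnr cells from 2 UMIs and 347 CPM in the arterial cells, with ratios of 16.9 (4.6 to 140) and 0.462 (0.360 to 0.597). Dll4, a Notch ligand, stood at 2.21 (1.28 to 4.13) and 0.505 (0.386 to 0.666) times these groups. Alpl, tissue-nonspecific alkaline phosphatase, stood at 7.07 (2.71 to 26.3) and 0.310 (0.242 to 0.396) times. Stmn2, a microtubule regulator, stood at 3.90 (2.44 to 6.66) and 0.241 (0.209 to 0.279) times, and Sox17, an arterial SoxF factor, at 1.5 (1.10 to 2.09) and 0.533 (0.444 to 0.641) times. Edn1, the endothelin precursor, and Fbln5, an elastic fibre protein, were at 0 UMIs in the Car4 Aplnr cells, so the Cxcl12 Btnl9 cells were at least 4.56-fold and 5.62-fold higher against a floor of 3 counts, with exact lower bounds of 3.62 and 4.48, and they stood at 0.119 and 0.0748 times the arterial cells. Each of the genes named here was thus intermediate by summed value. Unc5b stood at 6.07 (2.55 to 19.0) and 1.33 (0.900 to 2.02) times both neighbours and Dll1, another Notch ligand, at 0.515 (0.259 to 1.10) and 0.247 (0.148 to 0.411) times. Within libraries, at 12 weeks Sox17 stood at 810 CPM in the 5 Car4 Aplnr cells from 5 UMIs, above the 256 CPM of the Cxcl12 Btnl9 cells.

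The marker genes Rbp7 and Aqp7 also did not lie between. Rbp7 stood at 5.92 (4.21 to 8.60) times the Car4 Aplnr cells and 1.25 (1.08 to 1.46) times the arterial cells, and Aqp7 at 1.51 (1.17 to 1.98) and 2.88 (2.13 to 3.96) times. Mgll stood at 1.76 (1.48 to 2.12) and 2.29 (1.93 to 2.74) times and Cd300lg at 1.44 (1.18 to 1.76) and 4.74 (3.52 to 6.53) times. Of the 3 groups, the Cxcl12 Btnl9 cells had the highest summed value of these 4 genes. By library this order held for Mgll and Cd300lg in all 3 libraries, for Aqp7 in the healthy and 2-week libraries and for Rbp7 in the healthy library. At 2 weeks Rbp7 stood at 1067 CPM (905 to 1248) in the arterial cells, and at 12 weeks it stood at 1296 CPM (560 to 2554) in the 5 Car4 Aplnr cells from 8 UMIs. Aqp1, the main water channel of capillary ECs, stood at 0.404 (0.364 to 0.448) times the Car4 Aplnr cells while Aqp7 stood above them, so the 2 water channels differed in opposite directions between both capillary groups. Trp53i11 stood at 0.417 (0.316 to 0.556) times and Fabp5 at 0.543 (0.490 to 0.602) times the Car4 Aplnr cells.

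Between 0 and 2 weeks, 418 of 5749 genes compared (7.27%) were past 2-fold higher in the Cxcl12 Btnl9 cells and 324 (5.64%) lower, and the median log2 ratio was 0.03. Between 0 and 12 weeks, 274 of 3828 genes (7.16%) were higher and 367 (9.59%) lower, with a median of 0.07. Both comparisons share the healthy cells. Fewer UMIs lay behind the 12-week cells, with 117112 UMIs in all against 407876 in the healthy and 597173 in the 2-week cells, so a gene of low level could be compared at 2 weeks and not at 12. Ratios in the other ECs are given beside those in the Cxcl12 Btnl9 cells, and the ratio of both ratios carries a 95% interval from the 4 counts.

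The marker genes of the cells themselves moved less than in the other ECs. Rbp7 at 2 weeks was 0.926 (0.815 to 1.05) times the healthy level in the Cxcl12 Btnl9 cells and 1.75 (1.60 to 1.93) times in the other ECs, a ratio of ratios of 0.528 (0.451 to 0.618). At 12 weeks it was 0.750 (0.590 to 0.944) and 1.44 (1.17 to 1.76) times, a ratio of ratios of 0.520 (0.384 to 0.703). Aqp7 was 1.08 (0.892 to 1.31) and 1.36 (1.02 to 1.81) times in the Cxcl12 Btnl9 cells and 1.68 and 1.94 times in the other ECs, with ratios of ratios of 0.644 (0.516 to 0.804) and 0.703 (0.494 to 1.00). Cd300lg was 1.65 (1.40 to 1.94) and 1.77 (1.39 to 2.23) times, against 2.39 and 2.14 times in the other ECs. Taken as a ratio and not as a difference in CPM, the gap between both groups in these genes was thus widest in the healthy library. There the other ECs had their lowest levels. Cxcl12, which the rule used, was 0.928 and 1.19 times the healthy level.

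Clock genes were higher at 2 weeks, in other cell classes as well as in ECs. Among 17 listed circadian genes, 8 were compared, of which 6 were higher past 2-fold and 0 lower. Over all genes these shares were 7.27% and 5.64%. The median log2 ratio was 2.40, against 2.47 in the other ECs and 0.03 over all genes. Summed over all listed genes, which needs no minimum, the healthy level was 380 CPM (323 to 445). It was 919 CPM (844 to 999.6) at 2 weeks and 265 CPM (180 to 376) at 12 weeks. Dbp, a clock output transcription factor, had 0 UMIs in the healthy cells, 154 UMIs in 104 of 348 cells at 2 weeks, or 258 CPM (219 to 302), and 0 at 12 weeks. It was at least 35.1-fold higher at 2 weeks against a floor of 3 counts in the healthy cells, with an exact lower bound of 28.2, and 39.3 (22.8 to 74.4) times higher in the other ECs. Nr1d1, the clock repressor REV-ERB alpha, had 0, 63 and 0 UMIs and was at least 14.3-fold higher at 2 weeks against the same floor, with an exact lower bound of 11.3 and with 49.9 times in the other ECs. Nr1d2 had 2, 35 and 1 UMIs, a ratio of 12 (3.07 to 103). In fibroblasts Dbp, Nr1d1 and Nr1d2 stood at 5.43, 35.0 and 6.66 times, and in blood cells at 4.02, 12.7 and 9.10 times. Tef and Per1 stood at 4.27 (1.47 to 16.9) and 3.69 (1.40 to 12.3) times. Per3 had 2, 26 and 0 UMIs, a ratio of 8.88 (2.22 to 77.2). The hour at which each heart was taken is not given in the sources used here, and its part in these values was not tested.

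Basement membrane genes were higher at 2 weeks. Of 17 compared, 15 had a ratio above 1, 7 were higher past 2-fold and 0 lower, against 7.27% of all genes, with a median log2 ratio of 0.89 in the Cxcl12 Btnl9 cells and 0.59 in the other ECs. Hspg2, the heparan sulfate proteoglycan perlecan, stood at 299 CPM (248 to 357), 1005 CPM (926 to 1088) and 470 CPM (354 to 611). Its 2-week ratio was 3.36 (2.76 to 4.12) and 2.69 (2.49 to 2.91) in the other ECs, a ratio of ratios of 1.25 (1.01 to 1.54). Col4a1, a chain of collagen IV, stood at 738, 1454 and 623 CPM, with ratios of 1.97 (1.73 to 2.25) at 2 weeks and 0.845 (0.645 to 1.09) at 12 weeks. Col4a2, its partner chain, stood at 1.83 (1.56 to 2.15) and 0.537 (0.360 to 0.777) times. Col15a1 and Col18a1, whose proteins sit in the vascular basement membrane, stood at 3.13 (2.08 to 4.86) and 2.21 (1.16 to 4.48) times at 2 weeks. The laminin chain Lamb1 and the proteoglycan agrin, Agrn, stood at 2.02 (1.29 to 3.26) and 2.66 (1.31 to 5.98) times. At 12 weeks the group's median was 0.03, with 1 of 14 genes higher and 1 lower, against 7.16% and 9.59% of all genes. Sparc, a matrix protein that binds collagen, did not go with the others, at 0.848 (0.797 to 0.903) and 0.613 (0.543 to 0.692) times.

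Sox18, a SoxF transcription factor of blood and lymph vessels, was higher at both times. It stood at 73.6 CPM (49.6 to 105) in the healthy cells, 437 CPM (386 to 493) at 2 weeks and 623 CPM (489 to 784) at 12 weeks. The ratios were 5.94 (4.06 to 8.99) and 8.47 (5.47 to 13.4), close to 5.24 and 7.47 in the other ECs. Sox17 went the other way, at 405 CPM (345 to 471), 291 CPM (250 to 338) and 256 CPM (173 to 366). Its 12-week ratio was 0.633 (0.414 to 0.939) while in the other ECs it was 1.73 (1.42 to 2.09), a ratio of ratios of 0.366 (0.238 to 0.564). The remaining SoxF gene, Sox7, stood at 80.9, 132 and 171 CPM, with ratios of 1.64 (1.08 to 2.53) and 2.11 (1.15 to 3.79).

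**Figure D4:**
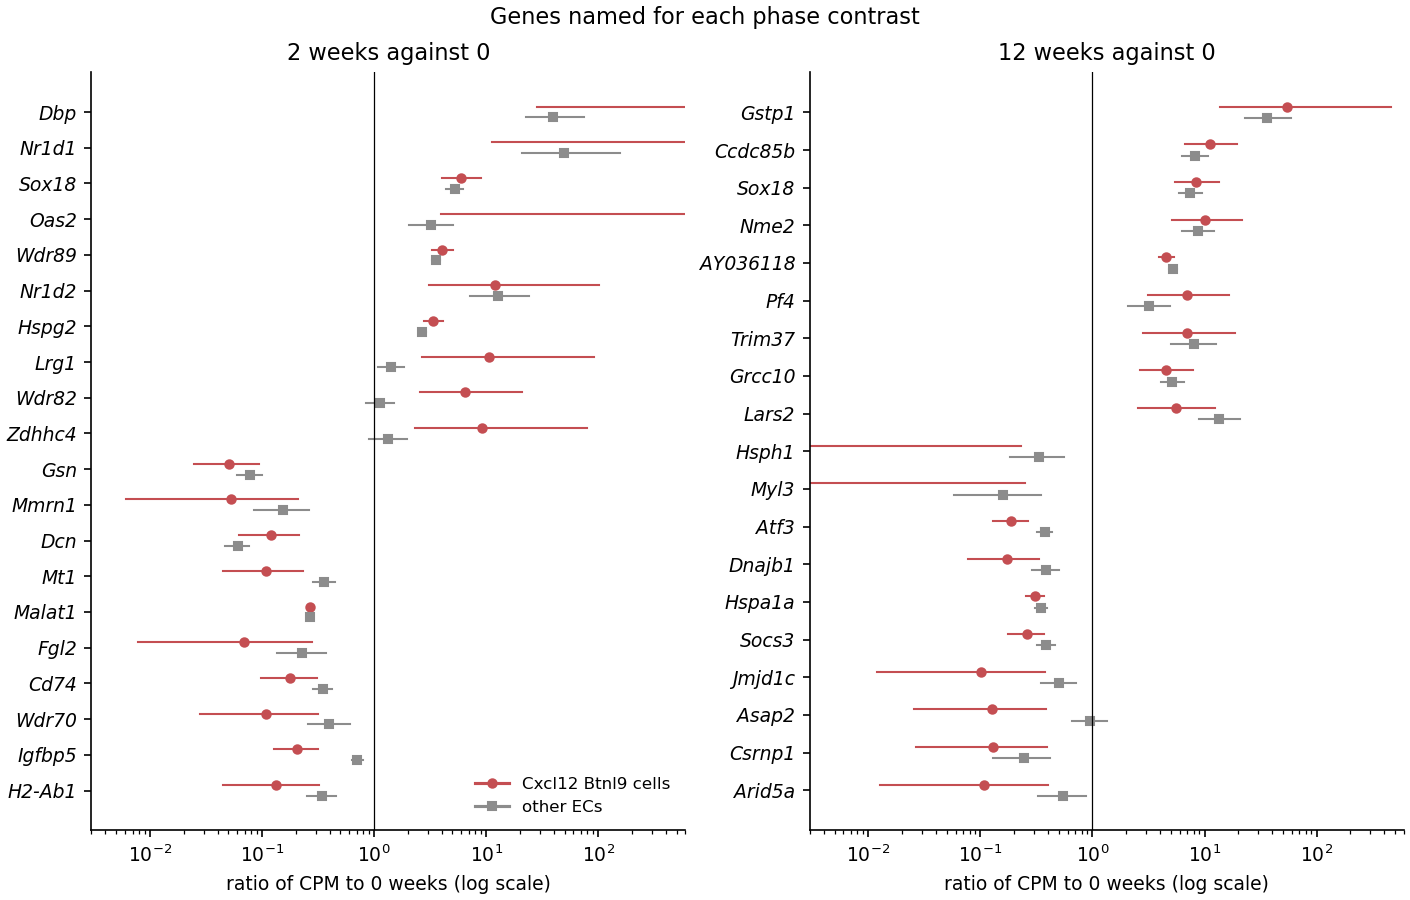
Ratios of the genes named between 2 and 0 weeks and between 12 and 0 weeks in Cxcl12 Btnl9 cells and in other ECs, on a log axis with 95% intervals. A line with no point is a gene at 0 UMIs in the earlier or the later cells. Sox18 lies near 5.94 and 8.47 times in the Cxcl12 Btnl9 cells with the other ECs beside it, and Asap2 lies at 0.127 times at 12 weeks, with the other ECs at 0.95.

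Among the other genes higher at 2 weeks by the widest margins, Oas2, an interferon-induced sensor of double-stranded RNA, had 0 and 23 UMIs and was at least 5.24-fold higher against the floor, with an exact lower bound of 3.93 and with 3.2 times in the other ECs. Wdr89, a WD repeat gene, stood at 4.04 (3.25 to 5.07) times and at 3.56 times in the other ECs, and its reads may be shared with related copies. Wdr82, a subunit of a histone methyltransferase complex, and Zdhhc4, a palmitoyl transferase, stood at 6.42 (2.56 to 20.7) and 9.22 (2.32 to 80.0) times from 5 and 2 healthy UMIs, against 1.12 and 1.32 times in the other ECs. Lrg1, a secreted glycoprotein of venous and inflamed ECs, had 2 and 31 UMIs, a ratio of 10.6 (2.69 to 91.3), but its 31 UMIs came from 9 cells. Among 2 other venous genes, Vcam1 had 36 UMIs in 13 cells and Plvap 24 UMIs in 10 cells. Of the 348 cells, 7 carried at least 2 of these 3 genes and held 27 of the Lrg1 UMIs, 20 of the Plvap UMIs and 7 of the Vcam1 UMIs. These 7 cells were looked at after the values were seen, and whether they are venous cells was not tested.

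Genes lower at 2 weeks by the widest margins included genes of other cell types. Gsn, an actin-severing protein abundant in fibroblasts, stood at 363, 18.4 and 512 CPM, a 2-week ratio of 0.0508 (0.0248 to 0.0935) with 0.0775 in the other ECs. Dcn, a fibroblast proteoglycan, stood at 0.120 (0.0625 to 0.212) times and Cd74, the MHC class II invariant chain, at 0.179 (0.0982 to 0.308) times. Fibroblast and blood cell markers as a whole were also lowest at 2 weeks, as given above, and their part in these values was not tested. Of 4 MHC class II genes compared, 4 were lower past 2-fold at 2 weeks, against 5.64% of all genes, with H2-Ab1 at 0.132 (0.0451 to 0.322) times from 31 and 6 UMIs. Mt1, a metallothionein, had 50 and 8 UMIs, a ratio of 0.109 (0.0447 to 0.232), against 0.358 (0.286 to 0.447) in the other ECs. Malat1, a nuclear long RNA, was lower in each of the 4 groups compared, at 0.269 (0.262 to 0.275) times in the Cxcl12 Btnl9 cells, 0.266 in the other ECs, 0.373 in fibroblasts and 0.494 in blood cells. Wdr70, another WD repeat gene, stood at 0.109 (0.0276 to 0.316) times from 25 and 4 UMIs. Mmrn1, Igfbp5 and Fgl2 were named by the rule as well, but 25 of 26, 88 of 90 and 14 of 20 of their healthy UMIs came from 1 cell each.

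Of 14 MHC class I genes compared, 3 were higher past 2-fold at 2 weeks and 2 at 12 weeks, against 7.27% and 7.16% of all genes. All 14 had a 2-week ratio above 1, where 52.9% of all genes had one, with a median log2 ratio of 0.69 at 2 weeks and 0.60 at 12 weeks, against 0.73 and 0.71 in the other ECs. B2m, the shared light chain, stood at 3158 CPM (2988 to 3335), 5533 CPM (5346 to 5725) and 4884 CPM (4492 to 5301), with ratios of 1.75 (1.64 to 1.87) and 1.55 (1.40 to 1.71). H2-K1 stood at 691, 1387 and 1119 CPM, with ratios of 2.01 (1.75 to 2.30) and 1.62 (1.30 to 2.00). The H2-Q genes are near-identical copies and their values are uncertain.

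At 12 weeks, several of the genes with the widest margins differed alike in fibroblasts and blood cells. Gstp1, a glutathione transferase, had 2 and 31 UMIs, a ratio of 54.0 (13.7 to 466), with 36.5 in the other ECs, 23.5 in fibroblasts and 16.7 in blood cells. Nme2, a nucleoside diphosphate kinase, stood at 10.2 (5.15 to 21.5) times, with 8.78, 7.09 and 9.08 times in these groups. AY036118, a non-coding transcript, stood at 4.57 (3.91 to 5.36) times and at 5.21, 6.17 and 8.36 times, and Grcc10 at 4.55 (2.65 to 7.90) times and at 5.18, 3.75 and 3.03 times. Gstp1, Nme2 and AY036118 may share reads with near-identical copies or overlapping genes, so their values are uncertain. Ccdc85b, a coiled-coil protein, stood at 11.1 (6.66 to 19.4) times against 8.19 in the other ECs. Trim37, a ubiquitin ligase, and Lars2, the mitochondrial leucyl-tRNA synthetase, stood at 6.97 and 5.51 times against 8.0 and 13.5. Pf4, the platelet chemokine, stood at 6.97 (3.11 to 16.7) times, and the 4 platelet markers summed to 31.9, 18.4 and 290.3 CPM in the cells and to 44.0, 38.3 and 231 CPM in the other ECs.

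Heat shock genes were lower at both times. Of 12 compared, 7 were lower past 2-fold at 2 weeks and 8 at 12 weeks, against 5.64% and 9.59% of all genes, with median log2 ratios of -1.09 and -1.33 against -0.79 and -0.90 in the other ECs. Hspa1a, an inducible Hsp70, stood at 3489 CPM (3310 to 3675), 1984 CPM (1873 to 2101) and 1067 CPM (888 to 1272), a 12-week ratio of 0.306 (0.253 to 0.368) with 0.347 in the other ECs. Hsph1, an Hsp110 chaperone, had 58, 22 and 0 UMIs and was at least 5.55-fold lower at 12 weeks against the floor, with an exact upper bound of the ratio of 0.229, and Dnajb1, an Hsp40, stood at 0.171 (0.0771 to 0.332) times. Of 23 immediate early genes, 1 was lower past 2-fold at 2 weeks, a share below the 5.64% of all genes, and 5 at 12 weeks, against 9.59%, with a 12-week median of -0.62 against -0.19 in the other ECs. Atf3, a stress-induced transcription factor, stood at 1633 CPM (1511 to 1762), 651 CPM (588 to 719) and 307 CPM (215 to 426). Its 12-week ratio was 0.188 (0.131 to 0.263) against 0.375 (0.321 to 0.437) in the other ECs, a ratio of ratios of 0.501 (0.347 to 0.724). Socs3, an inhibitor of cytokine signalling, stood at 0.259 (0.175 to 0.371) times and Fos, an AP-1 subunit, at 0.649 (0.582 to 0.722) times. These genes also respond to warm digestion of tissue, and the part of cell preparation in the values was not tested.

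Some genes lower at 12 weeks had ratios nearer to 1 in the other ECs. Asap2, a GTPase-activating protein for Arf proteins, had 82 and 3 UMIs, a ratio of 0.127 (0.0257 to 0.386), against 0.95 (0.654 to 1.34) in the other ECs and a ratio of ratios of 0.134 (0.0403 to 0.446). Jmjd1c, a histone demethylase family gene, and Arid5a, an RNA-binding regulator of cytokine messages, stood at 0.101 and 0.107 times from 2 UMIs each at 12 weeks, against 0.507 and 0.546. Csrnp1, an immediate early nuclear protein, had 80 and 3 UMIs, with 0.131 (0.0264 to 0.396) against 0.244 in the other ECs. Its ratio of ratios of 0.535 (0.149 to 1.92) left the 2 groups within counting error of each other. Myl3, a myosin light chain of heart muscle, was lower in both groups. It had 53 and 0 UMIs in the Cxcl12 Btnl9 cells and was at least 5.07-fold lower against the floor, with an exact upper bound of the ratio of 0.251. In the other ECs its ratio was 0.159 (0.0579 to 0.349). Of 5 cardiomyocyte markers compared, 5 were lower past 2-fold, against 9.59% of all genes. Their median log2 ratio was -1.62, against -1.76 in the other ECs. Cells with at least 3 of 6 cardiomyocyte markers were 19 of 188, 15 of 348 and 2 of 75 of the Cxcl12 Btnl9 cells, or 10.1%, 4.31% and 2.67%, beside 17.3%, 7.46% and 2.37% of the other ECs. The count depends on depth, which was highest in the healthy cells.

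Klf2 and Klf4 were below the healthy level at both times. Klf2, a transcription factor induced by shear stress, stood at 5068 CPM (4852 to 5291), 3630 CPM (3479 to 3787) and 2621 CPM (2336 to 2932). Its ratios were 0.716 (0.674 to 0.761) and 0.517 (0.457 to 0.583), against 0.791 and 0.857 in the other ECs, a 12-week ratio of ratios of 0.604 (0.528 to 0.691). Klf4 stood at 0.626 (0.561 to 0.700) and 0.608 (0.496 to 0.740) times. The shear-responsive and vasoactive list as a whole had none of 15 and none of 12 genes past 2-fold. Over all genes 7.27% were higher and 5.64% lower at 2 weeks, and 7.16% and 9.59% at 12 weeks. The list's medians were 0.02 and 0.0013, so Klf2 and Klf4 did not stand for their list.

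Of 16 EC identity genes compared, 1 was lower past 2-fold at 2 weeks, Cldn5, and 1 higher at 12 weeks, the guidance receptor Robo4 at 2.11 times. Over all genes these shares were 5.64% and 7.16%. Cldn5, the main claudin of EC tight junctions, stood at 755 CPM (673 to 844), 315 CPM (271 to 363) and 418 CPM (310 to 553). Its ratios were 0.417 (0.346 to 0.501) and 0.554 (0.401 to 0.751), against 0.555 (0.521 to 0.590) and 1.20 (1.08 to 1.34) in the other ECs, a 12-week ratio of ratios of 0.461 (0.335 to 0.635). Cldn5 is also high in arterial ECs, which were 7.79% of the ECs at 12 weeks. Jam2, another junction protein, stood at 289, 320 and 632 CPM, with a 12-week ratio of 2.18 (1.61 to 2.95) against 1.22 (1.00 to 1.48). Epas1, the hypoxia-inducible factor of ECs, stood at 429, 735 and 393 CPM, with 1.71 (1.43 to 2.05) and 0.915 (0.647 to 1.27) times, against 1.71 and 1.86 times in the other ECs. Ptprb, a receptor phosphatase of ECs, stood at 0.672 (0.475 to 0.931) times at 12 weeks against 1.15.

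Arterial and Notch genes moved both ways, with more genes higher than lower at 2 weeks. Of 26 compared at 2 weeks, 17 had a ratio above 1, 5 were higher past 2-fold and 2 lower. Over all genes these shares were 52.9%, 7.27% and 5.64%. Of 22 at 12 weeks, 11 had a ratio above 1, 2 were higher and 2 lower, against 51.1%, 7.16% and 9.59% of all genes. The medians were 0.32 and 0.07 in the Cxcl12 Btnl9 cells and 0.29 and 0.84 in the other ECs. Hey1 stood at 90.7 CPM (63.9 to 125), 211 CPM (176 to 251) and 145 CPM (84.6 to 232), a 2-week ratio of 2.33 (1.60 to 3.45) with 1.97 in the other ECs. Igfbp3, an insulin-like growth factor binding protein, stood at 130, 313 and 102 CPM, with 2.41 (1.77 to 3.33) and 0.789 (0.384 to 1.49) times against 1.44 and 2.57 times. Stmn2 stood at 0.790 (0.5 to 1.21) times at 12 weeks against 3.08 (2.62 to 3.61) in the other ECs. The 12-week gap between both groups in this list goes with the larger share of arterial cells in the other ECs and its part was not tested.

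For the Cxcl12 axis, Cxcr4 had 6, 22 and 10 UMIs in the Cxcl12 Btnl9 cells. Its ratio at 2 weeks was 2.5 (0.985 to 7.55), against 3.54 in the other ECs. The healthy and 12-week cells together held fewer Cxcr4 UMIs than the minimum set for comparing a gene. The ratio at 12 weeks, 5.80 (1.91 to 19.4) against 1.08 in the other ECs, is therefore a description only and was not counted. Ackr3 stood at 61.3, 100 and 128 CPM, with ratios of 1.64 (1.01 to 2.73) and 2.09 (1.02 to 4.12). Most fatty acid genes stayed within 2-fold of the healthy level. At 2 weeks 2 of 16 were higher past 2-fold and 0 lower, against 7.27% and 5.64% of all genes. At 12 weeks 0 of 14 were past 2-fold higher or lower, against 7.16% and 9.59%. The median log2 ratios were 0.17 and 0.18, beside 0.03 and 0.07 over all genes. Summed, the list stood at 29445 CPM (28921 to 29977), 35599 CPM (35122 to 36081) and 32029 CPM (31012 to 33071). Fabp4 stood at 1.27 (1.24 to 1.31) and 1.09 (1.04 to 1.14) times, Cd36 at 1.12 (1.04 to 1.22) and 1.05 (0.925 to 1.19) times and Gpihbp1 at 1.30 (1.18 to 1.43) and 1.29 (1.10 to 1.5) times. The 2 genes past 2-fold were Angptl4, an inhibitor of lipoprotein lipase, with 6 and 23 UMIs, and Cpt1a, which admits fatty acids to mitochondria, with 3 and 27 UMIs, at 2.62 (1.04 to 7.86) and 6.15 (1.89 to 31.7) times. Scarb1, the lipoprotein receptor that the study followed, stood at 169 CPM (132 to 214), 191 CPM (157 to 229) and 196 CPM (124 to 295) in the Cxcl12 Btnl9 cells. Its ratios were 1.13 (0.830 to 1.54) and 1.16 (0.691 to 1.88), against 1.14 (0.993 to 1.30) and 0.553 (0.357 to 0.822) in the other ECs, a 12-week ratio of ratios of 2.10 (1.13 to 3.89). Aqp1 stood at 1339, 722 and 1546 CPM, with 0.539 (0.474 to 0.613) times at 2 weeks against 0.784 in the other ECs.

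Nuclear respiratory chain genes moved little, while most mitochondrially encoded genes were lower at 12 weeks. None of 74 nuclear genes was past 2-fold at 2 weeks and none of 73 at 12 weeks, with medians of 0.11 and -0.02. Of 12 mitochondrially encoded genes, 0 were lower past 2-fold at 12 weeks and 1 higher, mt-Atp8 at 2.63 times, while 11 had a ratio below 1. Their median was -0.46, against 0.02 in the other ECs. Summed, they stood at 26135 CPM (25642 to 26636) in the healthy cells and 18768 CPM (17992 to 19570) at 12 weeks. Over all genes 7.27% were higher and 5.64% lower past 2-fold at 2 weeks, and 7.16% and 9.59% at 12 weeks. mt-Atp6 stood at 0.722 (0.649 to 0.802) times and 1.15 (1.10 to 1.21) times in the other ECs, a ratio of ratios of 0.626 (0.558 to 0.702). Of the BMP and TGF-beta genes, 1 of 15 was higher past 2-fold at 2 weeks and 1 of 12 lower at 12 weeks. Over all genes these shares were 7.27% and 9.59%. Id1, a BMP target, stood at 1052, 1283 and 1563 CPM, with 1.22 (1.08 to 1.38) and 1.49 (1.24 to 1.77) times against 1.48 and 2.38 times in the other ECs.

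**Figure D5:**
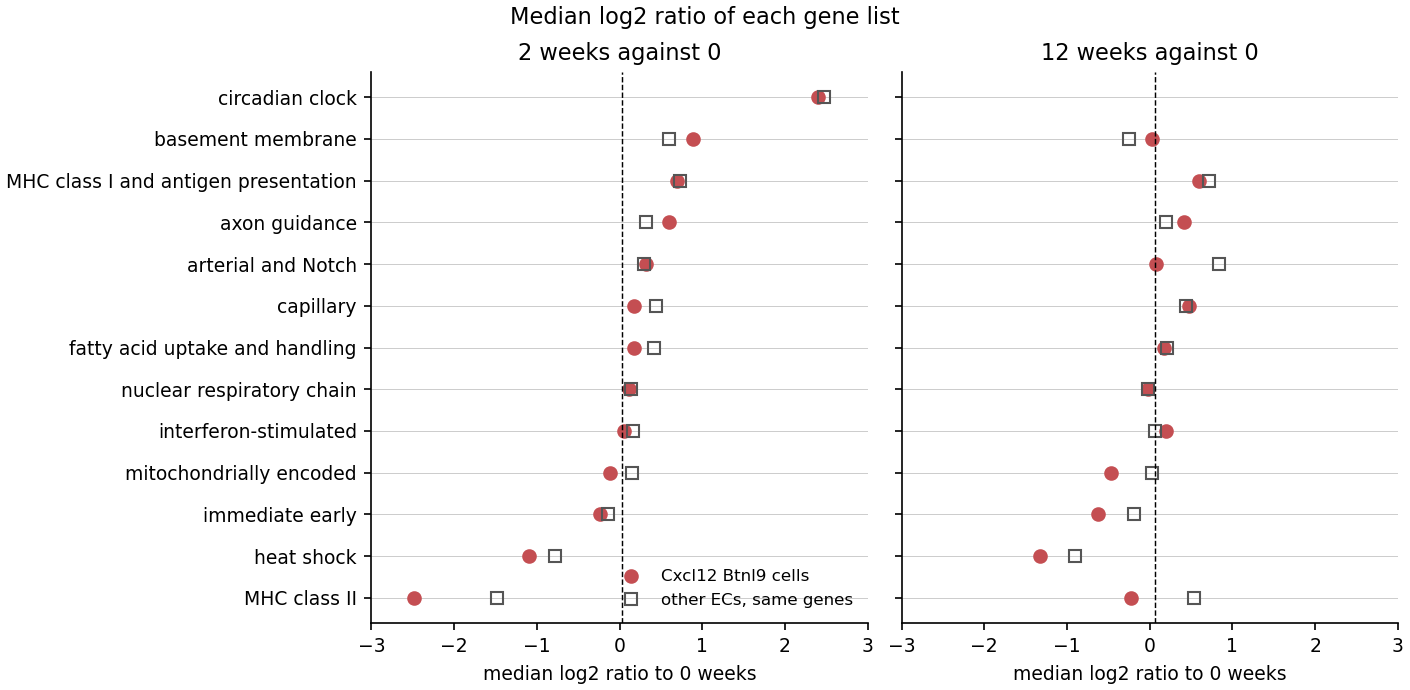
Median log2 ratio of each gene list between 2 and 0 weeks and between 12 and 0 weeks, in Cxcl12 Btnl9 cells and in other ECs. Circadian genes lie at 2.40 and 2.47 at 2 weeks, basement membrane genes at 0.89 and 0.59, and heat shock genes below 0 at both times.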

How the data were processed

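Non-cardiomyocytes of 1 healthy, 1 adaptive hypertrophy and 1 heart failure heart library were profiled on the Chromium platform. The deposited values are raw UMI counts per gene and barcode, which the authors made with Cell Ranger 2.0.0 against mm10, per the submitters' processing notes. They cover 27998 genes, with 12309881, 4472377 and 1723863 UMIs in all, whose number limits the precision. Cells with under 200 genes (8, 8 and 10) were left out. No cluster or doublet annotation was used. Cells were chosen by the rule given above. The cells and the gene lists were chosen with earlier results of these data known. UMIs were summed per group and library with scipy 1.17.1 under Python 3.11.15, with pandas 2.3.3 for tables and numpy 2.4.6 for thinning, and doublets were scored in scanpy 1.11.5. The calculation of ratios was tested on simulated data. List medians used log2 ratios with 0.5 added to each count. Besides markers and list genes, the text names, for each comparison and direction, up to 10 genes with at least 20 UMIs and past 2-fold whose 95% bound nearest to 1 lay farthest from 1, leaving out genes of the rule, mitochondrial, ribosomal, haemoglobin and predicted genes. Some genes that this rule named are not reported here. Genes of the rule were also left out of all counts of genes. Group ratios with 1 library a phase allow no test. Alternatives were thinning, other limits and gene minimums, the mean over cells, other totals and scaling, removal of doublets, of cells with over 10% mitochondrial UMIs or with cardiomyocyte RNA, and, chosen after seeing the data, leaving out cells with many haemoglobin or lymphatic UMIs. Gene positions are from GENCODE vM21.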

Additional observations from a re-analysis of the deposited data

How the results depend on the processing

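Thinning each cell to 1000 UMIs gave a healthy share of 21.7%, a limit of 2 Cxcl12 and Btnl9 UMIs gave 22.8% and 29.5% in the healthy and 2-week libraries, and a limit of 4 gave 15.1%, 17.1% and 23.4% in the 3 libraries. Of 27 alternative shares, 21 stayed within the interval of the reported share. Genes past 2-fold at 2 weeks numbered 224 higher and 151 lower after thinning and 125 and 119 with a minimum of 50 UMIs. At 12 weeks they numbered 90 and 146 after thinning and 65 and 103 with 50 UMIs, since fewer genes were then compared. Against the other ECs, 1 gene was higher in every library after thinning, with at least 5 endothelial UMIs and with 50 UMIs (Rbp7) and with the mean over cells (Alox12), and 9 were lower after thinning and with 50 UMIs. Of 6659 alternative ratios of named genes between phases, 6499 stayed within their interval, 158 moved and 2 reversed. Igfbp5 at 2 weeks turned from 0.205 to 9.10 when cells with many haemoglobin or lymphatic UMIs were left out, an alternative chosen after seeing the data, because 88 of its 90 healthy UMIs lay in 1 such cell. H2-Q4 at 12 weeks turned from 2.32 to 0.756 after thinning, and the cause was not tested. Rbp7 against the other ECs lay between 3.49 and 4.48 in the healthy cells, between 1.97 and 2.16 in the 2-week cells and between 1.47 and 2.61 in the 12-week cells. The median log2 ratio of the basement membrane genes at 2 weeks ranged from 0.65 to 1.02. No paired analysis was possible because each phase had 1 library. The 75 cells at 12 weeks and their 117112 UMIs limit what could be compared there, and no result is replicated.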

Other observations

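Interferon-stimulated genes showed no common direction in the Cxcl12 Btnl9 cells. At 2 weeks 3 of 29 compared were higher past 2-fold and 1 lower, against 7.27% and 5.64% of all genes, with a median log2 ratio of 0.05. At 12 weeks 3 of 22 were higher and 3 lower, against 7.16% and 9.59%, with a median of 0.20. Rsad2, the antiviral protein viperin, stood at 250 CPM (204 to 304), 260 CPM (220 to 304) and 512 CPM (391 to 659) in the healthy, 2-week and 12-week cells. Its 12-week ratio was 2.05 (1.46 to 2.85) against 1.30 (1.02 to 1.65) in the other ECs. Isg15, a ubiquitin-like interferon product, stayed at 446, 429 and 435 CPM while the other ECs held 392, 381 and 188 CPM, a 12-week ratio of ratios of 2.03 (1.35 to 3.06). Ifi27l2a stood at 0.387 and 0.197 times the healthy level.

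Of 15 guidance genes compared at 2 weeks, 2 were higher past 2-fold and 11 had a ratio above 1, against 7.27% and 52.9% of all genes. Their median log2 ratio was 0.59, against 0.32 in the other ECs. At 12 weeks 2 of 14 were higher past 2-fold, 1 lower, and 12 had a ratio above 1. Over all genes these 12-week shares were 7.16%, 9.59% and 51.1%. Sema7a, a membrane-anchored semaphorin, stood at 115 CPM (84.7 to 153), 250 CPM (211 to 293) and 120 CPM (65.4 to 201), and Sema3f, a secreted one, had 4, 35 and 4 UMIs. Among inflammatory genes, Il6 had 7, 48 and 0 UMIs, a 2-week ratio of 4.68 (2.11 to 12.3) with 5.73 in the other ECs, and Cx3cl1, a membrane-bound chemokine, had 4, 35 and 1 UMIs, a ratio of 5.98 (2.14 to 23.1) with 2.37. Smad6, an inhibitor of BMP signalling, stood at 3.14 times at 2 weeks against 1.35 in the other ECs. Of 15 proliferation genes, 9 had enough UMIs to be compared at 2 weeks and 2 at 12 weeks. Summed, they stood at 512 CPM (445 to 587), 514 CPM (458 to 575) and 196 CPM (124 to 295) in the Cxcl12 Btnl9 cells. The other ECs held 686, 317 and 251 CPM.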
